A study of Mus musculus with 24 samples.

Results

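The nuclear genes for the subunits of the oxidative phosphorylation system were followed in mouse interscapular brown fat. Members were chosen by symbol, with no measured value: symbols that start with Nduf and a subunit letter (A, B, C, S or V) and number, the 4 Sdh subunits, symbols starting with Uqcr, Cyc1, and symbols starting with Cox and a number from 4 to 8 or with Atp5, without symbols ending in -ps and without the Ndufaf assembly factors. This gave 94 of the 36144 symbols in the count table, with 40 for complex I, 4 for complex II, 11 for complex III, 19 for complex IV and 20 for complex V. Of these, 83 passed the filter on low counts: 38 for complex I, 4 for II, 9 for III, 15 for IV and 17 for V. The 11 that did not pass were 5 numbered pseudogenes (Atp5k-ps2, Atp5l-ps1, Atp5l-ps2, Uqcrh-ps1 and Uqcrh-ps2, with at most 4 reads each over 24 libraries), Cox6a2 with 171 reads, Cox6c2 with 36, Ndufs6b with 6, Ndufa11b with 1, and Cox7b2 and Cox8c with 0. Cox6c2, Ndufs6b and Ndufa11b are also annotated as processed pseudogenes.

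As background, complexes I to IV of the inner mitochondrial membrane pass electrons from NADH and succinate to oxygen while complexes I, III and IV pump protons, and complex V, the ATP synthase, uses the proton gradient to make ATP. Most subunits are encoded in the nucleus, and a few core subunits of every complex except complex II are encoded in mitochondrial DNA. Brown fat is rich in mitochondria, and its uncoupling protein Ucp1 lets protons return without ATP synthesis, so that respiration gives heat. Brown fat is also known for a low content of ATP synthase, together with low expression of Atp5g1, a gene for the membrane-ring subunit c.

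Polyadenylated RNA was sequenced from 24 mice aged 6 to 8 months, in 4 groups of 6 with 3 males and 3 females each. The wild-type (WT) groups were C57Bl/6J mice given saline or DCZ (deschloroclozapine, a ligand of muscarinic designer receptors). The other groups were Th-Cre mice, labelled B6.129X1- Tht1(cre)Te/Kieg, given saline or DCZ; their Cre recombinase is driven by regulatory sequence of tyrosine hydroxylase, an enzyme of catecholamine synthesis that marks the sympathetic nerves supplying brown fat. Tissue was taken 30 minutes after the injection. The designer receptor and how it was delivered to the animals were not given in the sources used here. All WT libraries carry lower library numbers than all Th-Cre libraries, and the genotypes also carry different strain names, so genotype, strain background and any handling that followed the library numbers cannot be told apart. In bulk tissue, fewer cells of a type and less RNA per cell cannot be told apart.

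Libraries held 11.9 to 22.9 M estimated counts. Markers of brown adipocytes were present in every group, with mean Ucp1 levels of 4772 and 5395 CPM (counts scaled by library size) in WT mice given saline and DCZ, and of 3505 and 2808 in Th-Cre mice. In 6 libraries the mean log2 CPM of 14 skeletal muscle markers was 2.09 to 6.35, against at most 0.29 in the other 18. These were 1 WT saline library (mouse 12), 3 Th-Cre saline libraries (DN2086, DN2087 and DN2094) and 2 Th-Cre DCZ libraries (DN2075 and DN2091). They are called the libraries with muscle transcripts below, and main results are also given without them.

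In WT mice the members took a mean of 4.34% ± 0.235 (SD, n = 6) of all reads under saline and 4.15% ± 0.37 under DCZ. In Th-Cre mice these shares were 3.69% ± 0.182 and 3.6% ± 0.223. Genes encoded in mitochondrial DNA took 31.4% to 42.3%. Levels of different members can be compared only per transcript length, and are given here as mean CPM per kb of coding transcript over the 24 libraries. The highest member was Atp5b, the catalytic beta subunit of the ATP synthase, at 2439 CPM per kb. Next by complex came Cox8b, a tissue-restricted isoform of a small complex IV subunit, at 1708, Uqcrc1, a core subunit of complex III, at 1365, Ndufa4 at 1301 and Sdha, the flavoprotein of complex II, at 1195. Uqcrc1 and Ndufa4 have mean coding lengths of 772 and 485 nt but longest transcripts of 2473 and 1232 nt. Their ranks, and the order within complexes I and III, therefore depend on the length used. Ndufa4 is grouped with complex I by its symbol although its product is known to associate with complex IV.

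The spread of levels differed between the complexes. By mean coding length, complex III ran from 527 for Uqcrfs1, the Rieske iron-sulfur protein, to 1365 CPM per kb for Uqcrc1. The 4 genes of complex II ran from 264 for Sdhc, a membrane anchor, over 436 for Sdhd, the other anchor, and 623 for Sdhb, the iron-sulfur subunit, to Sdha. Complexes I, IV and V also held members at far lower levels. The lowest of each were Ndufa4l2 at 5.8 CPM per kb in the complex I group, Cox4i2 at 3.79 in complex IV and Atp5g1 at 1.64 in complex V. The mean annotated length of Atp5g1 is 2666 nt, which lowers its level per kb, and its level of 4.38 CPM over all libraries also lay far below that of Atp5g3 at 142 CPM.

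**Figure D1:**
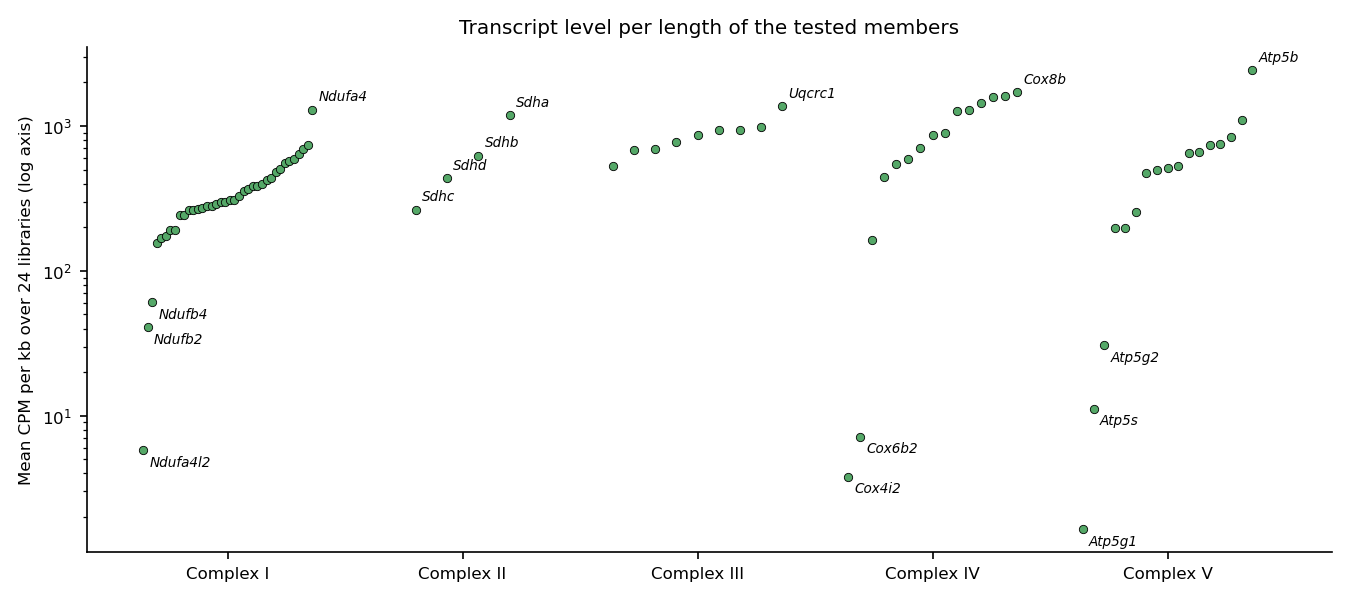
Mean CPM per kb over 24 libraries (log axis) of the 83 tested members, ordered by level within each complex, with 1 point for each gene. Members under 100 CPM per kb, the highest of each complex and all of complex II are named; Atp5b is highest at 2439 and Atp5g1 lowest at 1.64.

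Where a subunit has alternative isoforms, 1 of them took nearly all of the transcripts in most cases. Cox4i2, an isoform linked to low oxygen, made up 0.278% ± 0.0562 (SD, n = 6) of the Cox4i1 and Cox4i2 transcripts per kb in WT saline and 0.218% ± 0.0383 in Th-Cre saline. Cox6b2, known from testis, made up 0.528% ± 0.101 of its pair in WT saline, and Ndufa4l2 0.461% ± 0.0425 of its pair. Among the 3 genes for subunit c of the ATP synthase, Atp5g3 held 86.5% ± 2.41 in WT saline, Atp5g2 12.8% ± 2.29 and Atp5g1 0.657% ± 0.2. Gm10175, which shares 37.5% of the 31-base words of Atp5g2, is not counted in these shares. It had 114 ± 12.8 CPM in WT saline, against 21.4 ± 4.38 for Atp5g2. How reads divide between them is uncertain, and reads moved to Atp5g2 would lower the Atp5g3 share. The share of Atp5g1 stayed between 0.406% and 1.29% in all 24 libraries.

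Complex IV had 2 isoform pairs in which both genes were abundant. Cox7a1, the isoform of heart, muscle and brown fat, held 61.8% ± 1.49 (SD, n = 6) of the Cox7a1 and Cox7a2 transcripts per kb in WT mice given saline and 63.2% ± 1.79 under DCZ. The Th-Cre values were 60.1% ± 2.5 and 57.6% ± 1.9. Cox8b held 59.7% ± 2.3 of the Cox8b and Cox8a transcripts in WT mice given saline and 60.6% ± 2.34 under DCZ, against 52.2% ± 4.11 and 52.7% ± 1.97 in Th-Cre mice. For Cox8b the ranges were 56.5% to 62% in WT saline and 46.8% to 57.4% in Th-Cre saline, and 57.8% to 63.1% in WT DCZ and 49.9% to 55.9% in Th-Cre DCZ. The Cox8b shares of the genotypes thus overlapped under saline and did not overlap under DCZ. These shares were not tested.

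Cox6a2, the muscle and heart isoform paired with Cox6a1, had 168 of its 171 reads in the 6 libraries with muscle transcripts and 3 reads over the other 18, in 3 libraries. The highest value was 81 reads, or 4.2 CPM, in Th-Cre saline mouse DN2094, which also had the highest mean of the muscle markers.

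Promoters are shown for the Cox8 pair, whose shares did not overlap between genotypes under DCZ, and for Atp5k, the complex V subunit with the lowest p there. That of Sdha is shown too, because Sdha was higher in Th-Cre mice under saline, although not clearly so under DCZ (tests below). Each is the reference sequence from 250 bases before to 50 after the start site in RefSeq on GRCm38.p6, on the gene's strand. Capitals mark motif matches on either strand: NRF1 (GCGCANGCG), ETS (CCGGAAG), YY1 (AAGATGG), ERR (AAGGTCA) and CRE (TGACGTCA). Matches of different motifs are marked alike, and overlapping matches form 1 run.
Cox8b, chr7:140900397-140900696, minus strand: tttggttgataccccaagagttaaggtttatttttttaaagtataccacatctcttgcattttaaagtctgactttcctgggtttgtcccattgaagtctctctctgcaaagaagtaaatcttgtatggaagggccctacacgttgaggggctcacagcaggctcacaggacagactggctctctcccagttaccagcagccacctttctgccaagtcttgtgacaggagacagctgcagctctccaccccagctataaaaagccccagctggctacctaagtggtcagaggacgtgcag
Cox8a, chr19:7217567-7217866, minus strand: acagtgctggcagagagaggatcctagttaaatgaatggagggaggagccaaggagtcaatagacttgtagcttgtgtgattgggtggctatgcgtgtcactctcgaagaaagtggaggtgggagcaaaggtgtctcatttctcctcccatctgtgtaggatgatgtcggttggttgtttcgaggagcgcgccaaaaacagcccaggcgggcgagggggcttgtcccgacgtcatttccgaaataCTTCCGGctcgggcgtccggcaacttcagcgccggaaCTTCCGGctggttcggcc
Atp5k, chr5:108434350-108434649, minus strand: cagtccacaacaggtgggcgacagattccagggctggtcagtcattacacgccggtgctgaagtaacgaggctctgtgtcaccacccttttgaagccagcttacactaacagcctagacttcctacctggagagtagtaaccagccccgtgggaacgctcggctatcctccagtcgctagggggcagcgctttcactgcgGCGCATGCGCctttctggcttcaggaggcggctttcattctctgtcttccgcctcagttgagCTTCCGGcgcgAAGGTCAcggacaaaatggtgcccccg
Sdha, chr13:74350191-74350490, minus strand: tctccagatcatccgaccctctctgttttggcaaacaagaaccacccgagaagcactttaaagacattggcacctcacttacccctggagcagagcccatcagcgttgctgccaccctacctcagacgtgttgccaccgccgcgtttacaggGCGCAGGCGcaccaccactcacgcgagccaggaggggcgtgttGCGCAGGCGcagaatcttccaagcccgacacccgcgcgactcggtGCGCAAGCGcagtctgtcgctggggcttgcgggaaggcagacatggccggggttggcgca
The Cox8b window held none of the 5 motifs and the Cox8a window 2 ETS matches. The Atp5k window held NRF1, ETS and ERR matches, and the Sdha window 3 NRF1 matches.

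Of the 94 members, 68 were found in the promoter table, 2 of them by gene ID. NRF1, a factor known for nuclear respiratory genes, had its motif in 20 of these 68 windows, or 29.4%, against 7.03% of 27025 windows of the same length and 15.0% of 9973 windows of tested genes that are no members. By complex the NRF1 motif was in 8 of 32 windows for complex I, 2 of 3 for II, 2 of 5 for III, 1 of 13 for IV and 7 of 15 for V. The ETS motif was in 23.5% of member windows against 19.7% of those of other tested genes. The YY1 motif was in 16.2% against 8.25%, the ERR motif in 11.8% against 3.87%, and the CRE motif in 5.88% against 3.43%. Over all 27025 windows these shares were 9.93% for ETS, 7.28% for YY1, 5.38% for ERR and 2.03% for CRE. A match describes the letters in these windows only.

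Whether stimulation with DCZ changed the members within 30 minutes was asked in each genotype. In Th-Cre mice no member was called, where called means an adjusted p under 0.05 from edgeR's quasi-likelihood test with Benjamini-Hochberg adjustment over all 13129 tested genes, of which 0.0229% were called in either direction. The edgeR test gave 0 members with an unadjusted p under 0.05, and DESeq2 and limma-voom also gave 0 called and 0 at that level. The median log2 fold change of the 83 members was -0.03, against 0.00 over all genes, and 16 of 83 were positive. It was 0.03 without the libraries with muscle transcripts. The lowest p values by complex belonged to Ndufv2 (log2 fold change -0.11), Sdhd (-0.08), Uqcrc2 (-0.08), Cox7a1 (-0.17) and Atp5f1 (-0.09), with adjusted p of 0.944 or more.

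In WT mice, which carry no Cre, no member was called after DCZ either, at a background of 0.00762% of all genes called. Here 10 members had an unadjusted p under 0.05 in edgeR, 15 in DESeq2 and 13 in limma-voom, with 0 called by each. Over all genes 1137 of 13129 were at that level in edgeR, a share not far from that of the members. The median was -0.13, with 68 of the 83 below 0, and -0.04 when a per-library trend on transcript length (described below) was taken out. Ndufs6, a complex I accessory subunit, had the lowest p: its lowest, median and highest CPM were 165, 222 and 242 under saline and 152, 162 and 223 under DCZ. These ranges overlapped, and its log2 fold change was -0.28 ± 0.102 (SE), with an adjusted p of 0.527. The lowest p of the other complexes were for Uqcrq at -0.30, Cox5a at -0.18, Atp5mpl at -0.24 and Sdha at 0.16.

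The difference between these responses was tested as an interaction, which called 0.00762% of all genes and no member. It had 0 members with an unadjusted p under 0.05 in edgeR and 1 each in DESeq2 and limma-voom. The median difference was 0.09, and 0.01 with the length trend taken out. The lowest p was for Uqcrc2, a core subunit of complex III, at -0.21 ± 0.101 (SE), with an adjusted p of 0.666. The lowest p of the other complexes were for Ndufa2 at 0.35, Sdha at -0.24, Cox6a1 at 0.13 and Atp5g3 at 0.16.

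Between the genotypes, most members were lower in Th-Cre than in WT mice given saline. Of the 83 tested, 66 were called lower and 2 higher, where 12.4% of all tested genes were called lower and 12.5% higher. The median log2 fold change was -0.36, or 1.28-fold lower, against -0.01 over all genes. In 30 members every Th-Cre saline library lay below every WT saline library, which held for 2.73% of all genes. The calls were 67 lower or higher in limma-voom, with 3202 of 13129 genes called in all, and 70 in DESeq2, with 3497. In complex IV, 15 of 15 were called lower, with a median of -0.38. Complex I followed with 34 of 38 lower and a median of -0.38, complex III with 6 of 9 and -0.23, and complex V with 10 of 17 and -0.32. In complex II, 1 gene of 4 was lower and 1 higher, with a median of -0.04.

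**Figure D2:**
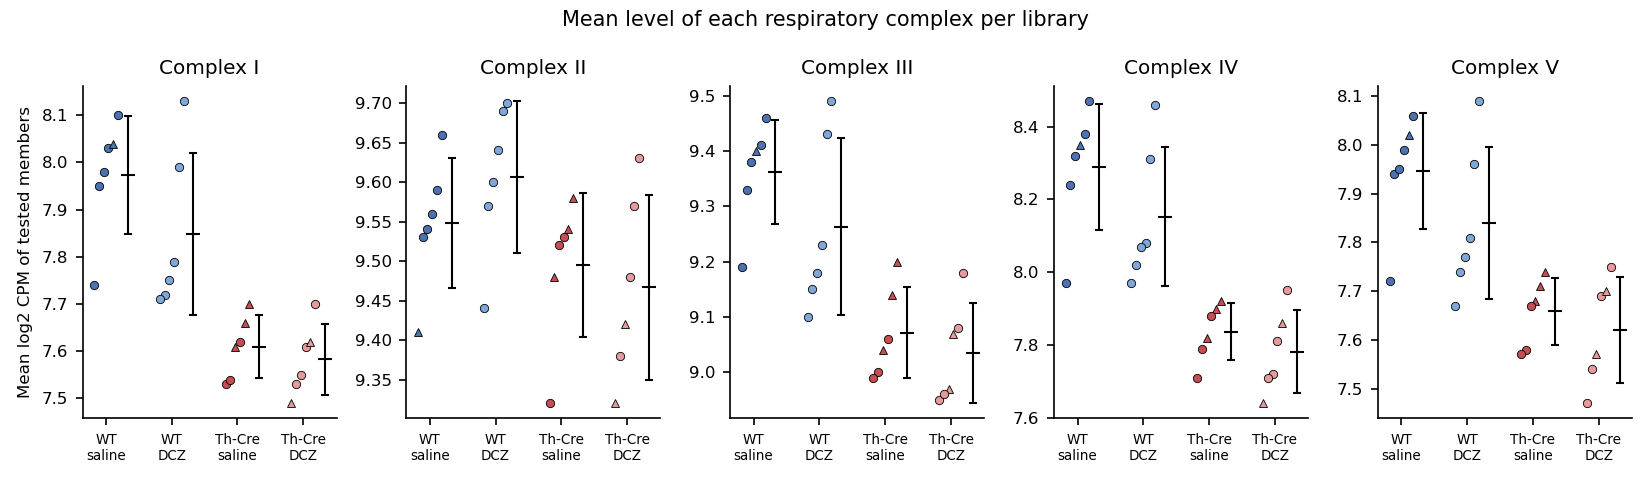
Mean log2 CPM over the tested members of each complex in each library, with 1 panel per complex, the 4 groups on the x axis, triangles for libraries with muscle transcripts, and bars for the mean and SD (n = 6). In complex I the WT saline libraries ran from 7.74 to 8.10 and the Th-Cre saline libraries from 7.53 to 7.70, while in complex II they ran from 9.41 to 9.66 and from 9.32 to 9.58.

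Per library, the mean log2 CPM of complex I was 7.74, 8.01 and 8.10 (lowest, median and highest) in WT saline, and 7.53, 7.61 and 7.70 in Th-Cre saline. For complex IV these were 7.97, 8.33 and 8.47 against 7.71, 7.85 and 7.92. Neither pair of ranges overlapped, although WT saline mouse 2 stood below the other WT saline libraries and close to the Th-Cre libraries. Mouse 2 was the lowest of its group for 59 of the 83 members. Without it, 66 members were called lower and 2 higher and the median was -0.41. Calls over all genes rose at the same time, from 3270 with all libraries to 4270. Complex III ran from 9.19 to 9.46 in WT saline and from 8.99 to 9.20 in Th-Cre saline, and complex V from 7.72 to 8.06 and from 7.57 to 7.74, so both overlapped slightly.

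**Figure D3:**
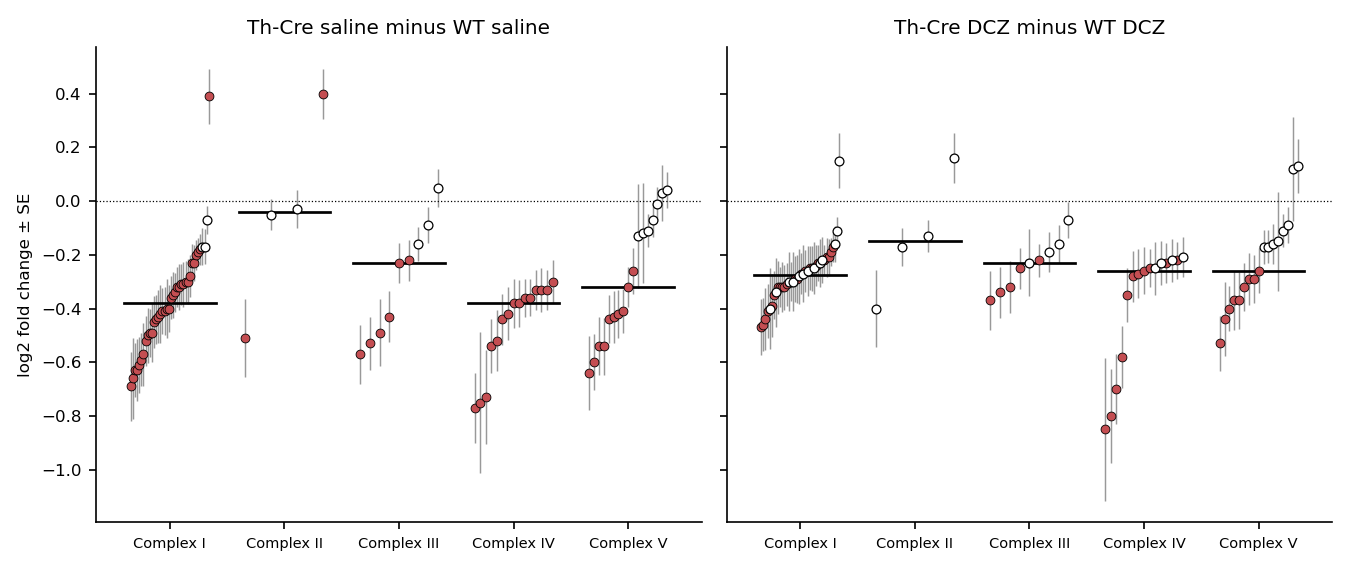
The log2 fold change ± SE of each tested member, Th-Cre minus WT, under saline (left) and DCZ (right), ordered within complexes. Filled points have an adjusted p under 0.05 and black lines are medians; under saline all 15 members of complex IV are filled and below 0, and Sdha at 0.40 and Ndufs1 at 0.39 are filled above 0.

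The largest decrease was that of Cox8b (chromosome 7, 140898945 to 140900446, minus strand, GRCm38). Its lowest, median and highest CPM were 654, 775 and 975 in WT saline, and 362, 453 and 577 in Th-Cre saline. All Th-Cre values lay below all WT values. The log2 fold change was -0.77 ± 0.13 (SE), 1.7-fold lower, with an adjusted p of 0.00107. Cox8a, the widely expressed isoform, had 691, 794 and 918 CPM in WT saline and 608, 641 and 668 in Th-Cre saline. Its ranges did not overlap either, and its log2 fold change was -0.33 ± 0.0819 (adjusted p of 0.00588).

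Among the other isoforms of complex IV, Cox7a1 had 304, 389 and 437 CPM in WT saline and 234, 265 and 299.8 in Th-Cre saline. It fell by 0.52 on the log2 scale (adjusted p of 0.00349) with no overlap, and Cox7a2 by 0.42 (adjusted p of 0.00461). The rare isoforms Cox4i2 and Cox6b2 fell by 0.75 and 0.73, from medians of 4.15 and 3.94 CPM in WT saline to 2.28 and 2.6 in Th-Cre saline. The Cox4i2 ranges overlapped, since WT saline mouse 2 had 1.86 CPM, and those of Cox6b2 did not. Of the common isoforms, Cox4i1 fell by 0.38, Cox6a1 by 0.36 and Cox6b1 by 0.36. The smallest decrease in the complex was that of Cox7b at 0.30.

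In complex I many small accessory subunits fell. Ndufa1, an accessory subunit encoded on the X chromosome, had 172, 227 and 279 CPM in WT saline and 143, 149 and 156 in Th-Cre saline. These ranges did not overlap, and the log2 fold change was -0.63 ± 0.0998 (SE), with an adjusted p of 0.000678. Ndufa2 fell by 0.69, Ndufa4l2 by 0.66, Ndufb2 by 0.63, Ndufb7 by 0.61 and Ndufa13 by 0.59. Ndufa13, also known as Grim19, had 230.0, 307 and 336 CPM in WT saline and 179.9, 194 and 225 in Th-Cre saline, with no overlap. Core subunits also fell, with Ndufv1, which binds the flavin, at -0.20 and Ndufs8, an iron-sulfur subunit, at -0.31, while Ndufv2 at -0.17 was not called (adjusted p of 0.0683).

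In complex III the small subunits Uqcr11, Uqcr10, Uqcrq and Uqcrh fell by 0.57, 0.53, 0.49 and 0.43. Uqcr10 had 282, 388 and 405 CPM in WT saline and 242, 257 and 268 in Th-Cre saline. Its ranges did not overlap. The core subunits Uqcrc1 at -0.09 and Uqcrc2 at 0.05 and the Rieske protein gene Uqcrfs1 at -0.16 were not called, and Cyc1, cytochrome c1, fell by 0.22. Mean coding lengths were 434 (Uqcr10) to 810 nt (Uqcrq) for the small subunits. Those of Uqcrc1, Uqcrc2 and Uqcrfs1 were 772, 1179 and 1363 nt, and length is taken up below.

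In complex V several small membrane subunits fell, with Atp5k (subunit e) at -0.60, Atp5j2 (subunit f) at -0.54, Atp5mpl at -0.54 and Atp5l (subunit g) at -0.43. Atp5e, the epsilon subunit of the catalytic part, fell by 0.64. Atp5k had 199.9, 265 and 308 CPM in WT saline and 162, 170.3 and 195 in Th-Cre saline, with no overlap and an adjusted p of 0.00119. The catalytic subunits Atp5a1 at 0.04 and Atp5b at -0.11 and the gamma subunit gene Atp5c1 at -0.07 were not called, nor was Atp5f1 at -0.01. Mean coding lengths ran from 1008 nt (Atp5c1) to 2572.5 (Atp5a1) for these uncalled genes. For the small membrane subunits named above they ran from 321.5 (Atp5k) to 668 (Atp5j2), and length is taken up below. Of the subunit c genes, Atp5g3 fell by 0.32 (adjusted p of 0.0042), while Atp5g2 at -0.12 and Atp5g1 at -0.13 were not called.

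In complex II the subunits went apart, with 1 called higher and 1 lower, and complex I also held 1 called higher. The mean coding lengths of Sdha, Sdhb, Sdhc and Sdhd are 1811, 1142, 1428 and 1231 nt. With the length trend described below taken out, the medians of complexes I to V were -0.11, 0.03, -0.05, -0.13 and -0.11. Sdha (chromosome 13, 74322254 to 74350280, minus strand) had 1544, 1785 and 2465 CPM in WT saline and 2324, 2444 and 2542 in Th-Cre saline. The groups overlapped only through WT saline mouse 2 at 2465, since the next highest WT value was 1812. Sdha rose by 0.40 ± 0.0933 on the log2 scale (SE, 1.32-fold, adjusted p of 0.0045). Sdhb (chromosome 4, 140961203 to 140979193, plus strand) had 798, 826 and 929 CPM in WT saline and 367, 659 and 742 in Th-Cre saline. All Th-Cre values were lower, and mice DN2099 at 367 and DN2094 at 442 stood below the rest of their group. The log2 fold change of Sdhb was -0.51 ± 0.145 (adjusted p of 0.013). The anchors Sdhc at -0.05 and Sdhd at -0.03 were not called.

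The other member that rose was Ndufs1, the largest iron-sulfur subunit of complex I. It lies outside the rule for named genes and was chosen after its values were seen. It had 405, 443 and 630.3 CPM in WT saline and 589, 618 and 642 in Th-Cre saline. As for Sdha, the overlap came from WT saline mouse 2, which had 630.3, and the next highest WT value was 484. The log2 fold change was 0.39 ± 0.103 (SE), with an adjusted p of 0.00858. Ndufs1 lies opposite Ino80dos and Eef1b2, and it is not known here whether counting used the strand.

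**Figure D4:**
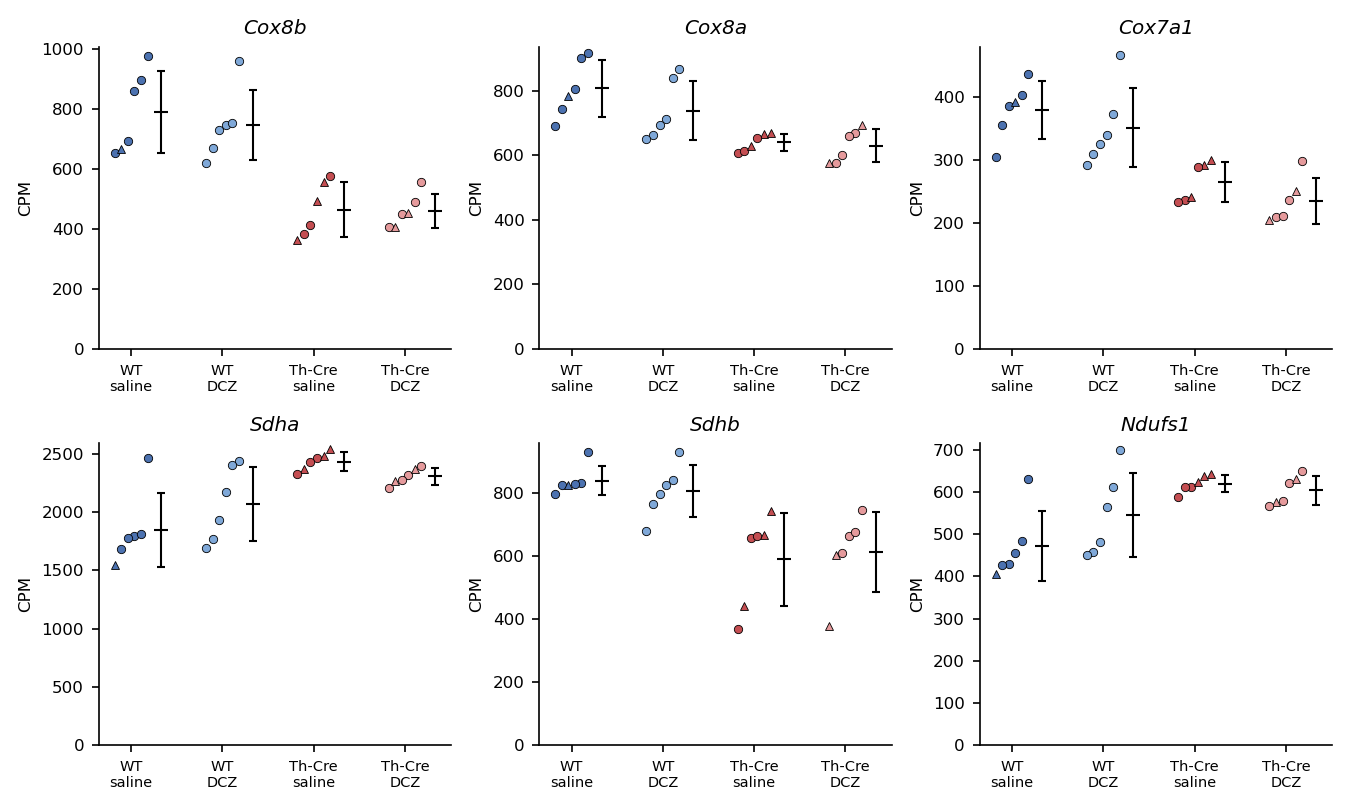
CPM in every library of Cox8b, Cox8a, Cox7a1, Sdha, Sdhb and Ndufs1 in the 4 groups, with triangles for libraries with muscle transcripts and bars for the mean and SD (n = 6); all axes start at 0. For Cox8b all Th-Cre libraries (362 to 577) lie below all WT libraries (619 to 975), while for Sdha WT saline mouse 2 at 2465 lies among the Th-Cre libraries.

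Transcript length moved with this genotype difference over all genes, and most members are short. Of the 83 members, 15 had a mean coding transcript length under 500 nt and 25 more under 700 nt. All 15 members under 500 nt were called lower with a median of -0.53, while 37.1% of the 143 other genes of that length were called lower with a median of -0.32. From 500 to 700 nt, 24 of 25 members and 45.2% of 290 other genes were called lower, with medians of -0.41 and -0.32. From 700 to 1000 nt, 16 of 20 members and 29.7% of 958 other genes were called lower, with medians of -0.32 and -0.20. From 1000 to 1500 nt these were 10 of 18 members and 14.0% of 2135 other genes, with medians of -0.18 and -0.07. The median of the 7459 other genes over 2000 nt was 0.06, and only 3 members were that long. In each of the bins up to 1500 nt the members thus had a lower median than other genes of that length, and the 3 bins under 1000 nt held most members.

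**Figure D5:**
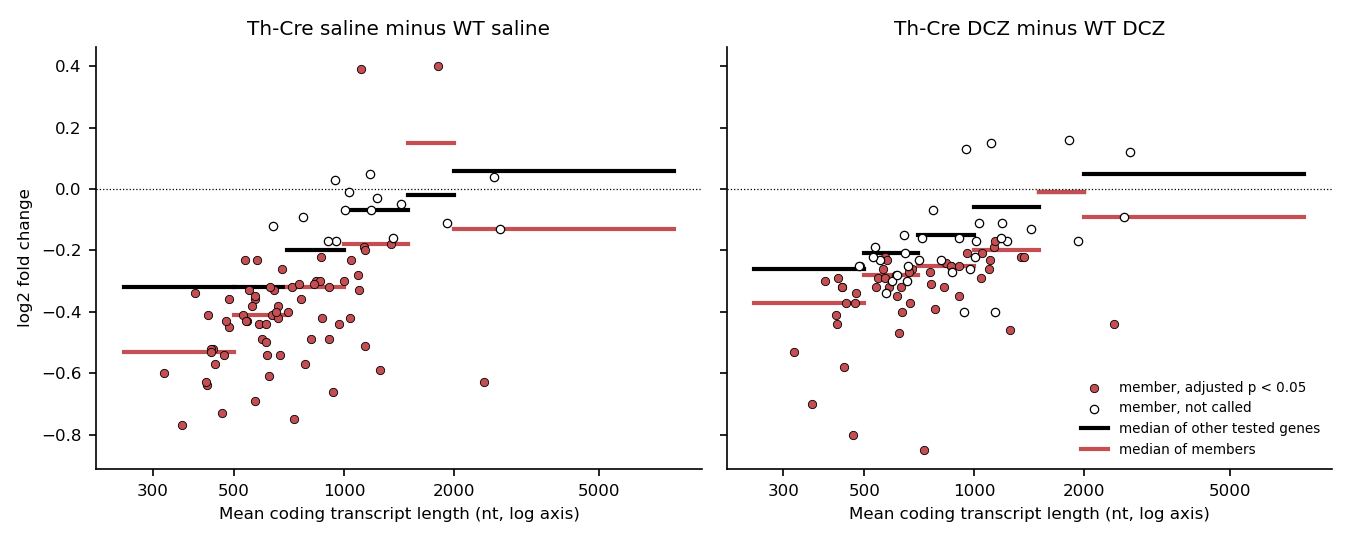
The log2 fold change of each tested member, Th-Cre minus WT, against mean coding transcript length (nt, log axis), under saline (left) and DCZ (right). Points are members, filled where the adjusted p was under 0.05, and bars are medians within 6 length bins for members and for all other tested genes; the bins over 1500 nt hold 2 and 3 members. Under saline the median of other genes goes from -0.32 under 500 nt to 0.06 over 2000 nt.

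When a per-library trend on transcript length, fitted over all genes, was taken out, 19 members were called lower and 2 higher, at a background of 8.98% of all genes called lower. This adjustment was chosen after the data were seen, and it also removes any change that short transcripts share for other reasons. The median of the members was then -0.11. Those still called lower were 10 of 38 in complex I, 1 of 4 in complex II, 2 of 9 in complex III, 3 of 15 in complex IV and 3 of 17 in complex V. Ndufb2 was at -0.66, Ndufa13 at -0.51, Ndufa4l2 at -0.49, Sdhb at -0.41, Ndufa2 at -0.36 and Cox8b at -0.34. The length of Ndufb2 is uncertain, because its annotated coding transcripts average 2413 nt. Cox8a at 0.01 and Cox6b1 at 0.02 changed sign and were no longer called, while Sdha at 0.41 and Ndufs1 at 0.50 kept their sign and call. The length of Ndufs1 is uncertain as well: its coding transcripts average 1110 nt, and its longest transcript has 2661 nt.

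Without the libraries with muscle transcripts, which left 5 WT saline and 3 Th-Cre saline libraries, 6 members were called lower and none higher, and 109 of 13414 genes were called in all. An unadjusted p under 0.05 was reached by 69 of the 83 members. The median of the members was -0.39, as large as with all libraries. The 6 were Cox8b at -0.83, Ndufb7 at -0.66, Ndufa13 at -0.64, Ndufa1 at -0.61, Atp5k at -0.59 and Ndufb11 at -0.55. Sdha was then at 0.36 (adjusted p of 0.0928) and Ndufs1 at 0.33 (adjusted p of 0.165). Markers of endothelium also moved with genotype: 8 of 8 were called lower under saline, and their mean log2 CPM ran from 6.24 to 7.05 in WT saline and from 6.14 to 6.29 in Th-Cre saline. Under DCZ 2 of the 8 were called lower, where 7.02% of all genes were. Of 5 tested lymphocyte markers, at low levels, 2 were called lower under saline (median -1.23) and 3 under DCZ (-1.43). Of the 14 brown adipocyte markers, 1 was called higher (Plin1 at 0.33) and 1 lower (Ucp1 at -0.44) under saline. The part of the endothelial and lymphocyte differences, and of the muscle transcripts, in the members' result was not tested.

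Under DCZ most members were again lower in Th-Cre mice. Of 83 members, 50 were called lower and none higher, where 7.02% of all genes were called lower and 6.75% higher. The median was -0.26, and in 14 members every Th-Cre DCZ library lay below every WT DCZ library, which held for 1.68% of all genes. By complex 25 of 38, 0 of 4, 5 of 9, 11 of 15 and 9 of 17 were called lower for complexes I to V. In complex II, edgeR gave 3 genes with an unadjusted p under 0.05 (Sdhb, Sdhc and Sdhd). None of the 4 members above 0 had one. This comparison shares no mouse with the one under saline, but both come from the same fit of all 24 libraries. In both, genotype is tied in the same way to strain name and library number. Called lower in both were 48 members, which is 48 of the 66 under saline and 48 of the 50 under DCZ. The share of all genes called lower in both was not counted, so whether this overlap is particular to the members cannot be said. The median difference between the 2 genotype effects is the interaction given above, which called no member.

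Cox8b again differed clearly: its CPM was 619, 737 and 960.4 in WT DCZ and 406, 450.5 and 555 in Th-Cre DCZ. The ranges did not overlap, and the log2 fold change was -0.70 ± 0.13 (SE), 1.62-fold lower, with an adjusted p of 0.00235. Atp5k fell by 0.53 (adjusted p of 0.00321), Cox7a1 by 0.58 (0.00331), Atp5o, the stalk subunit OSCP, by 0.40 (0.00413) and Ndufa13 by 0.46 (0.00489). Cox4i2 and Cox6b2 fell by 0.85 and 0.80. Ndufb2, Ndufb7 and Uqcrh fell by 0.44, 0.47 and 0.34. Sdha at 0.16 (adjusted p of 0.262), Ndufs1 at 0.15 (0.333) and Sdhb at -0.40 (0.0634) were not called here. For Sdha the WT DCZ libraries spread from 1694 to 2436 CPM and the Th-Cre DCZ libraries from 2208 to 2394, so the WT range covered the other.

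The count under DCZ rested on single libraries more than that under saline. WT DCZ mouse 5 was the highest of its group for 66 of the 83 members, and without it 12 members were called lower, with a median of -0.20. The count was 22 without WT DCZ mouse 10, 20 without Th-Cre DCZ mouse DN2072, 17 without DN2075 and 20 without DN2097. The calls over all genes fell as well, from 1808 with all libraries to 850 without WT DCZ mouse 5 and to 1174, 1026, 1133 and 1111 without the others in this order. With the length trend taken out, 10 members were called lower, where 4.8% of all genes were, and the median was -0.09. These 10 were Cox6b2, Ndufb2, Ndufa13, Cox8b, Cox7a1, Ndufb7, Ndufb11, Atp5k, Atp5o and Ndufa9. Without the libraries with muscle transcripts 5 were called, where 535 of 13414 genes were called in either direction, a share close to that of the members. The 5 members were all lower, and how many of the 535 genes were lower is not given here. They were Cox8b at -0.65, Cox7a1 at -0.55, Atp5k at -0.50, Ndufa13 at -0.45 and Atp5o at -0.38, and the median was -0.26.

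Sex was compared over all groups, with 12 females and 12 males. Atp5g1 was higher in females, with means of 5.18 and 3.59 CPM, a log2 fold change of 0.53 ± 0.137 (SE) and an adjusted p of 0.0185. In 7 of the 12 females it lay above every male. Uqcrfs1 was also higher, with means of 753 and 683 CPM and a log2 fold change of 0.14 ± 0.0437 (adjusted p of 0.042). These were the only members called, where 4.11% of all genes were called higher in females. Of the libraries with muscle transcripts 4 were from females, and 9 of the 14 muscle markers were called higher in females. Neither member was called without the libraries with muscle transcripts (adjusted p of 0.0673 and 0.144), and Uqcrfs1 also lost its call when any of 16 single libraries was left out.

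Genes that work with the members were counted in 4 lists, to be read against the 12.5% of all genes called higher and 12.4% called lower under saline. Of the 13 mRNAs for oxidative phosphorylation subunits encoded in mitochondrial DNA, 4 were called lower and 2 higher in Th-Cre saline against WT saline, with a median of -0.14, and 0.02 with the length trend taken out. The lower ones were mt-Nd3 at -0.64, mt-Co3 at -0.45, mt-Co2 at -0.35 and mt-Atp6 at -0.33, and the higher ones mt-Nd5 at 0.56 and mt-Nd4l at 0.52. Under DCZ edgeR called none of the 13 between genotypes, with a median of -0.20 and 5 at an unadjusted p under 0.05. Of 44 tested assembly factors, 5 were called higher and 8 lower under saline, with a median of -0.02, which is near those shares. Coa5 at 0.60 and Cox15 at 0.46, which act in complex IV assembly, were higher, and Uqcc3 at -0.58 and Uqcc2 at -0.59, which act in complex III assembly, were lower. Between genotypes under DCZ, 1 of the 44 was called higher and 8 lower, where 6.75% and 7.02% of all genes were. Their median was then -0.08, and 4 were called lower with the length trend taken out.

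Of 21 tested electron carriers, uncoupling proteins and nucleotide exchangers, 3 were called higher and 3 lower under saline, near the shares of all genes, and none higher and 5 lower under DCZ, where 6.75% and 7.02% of all genes were. Ucp1 fell by 0.44 ± 0.126 (SE) under saline (adjusted p of 0.0136) and by 0.96 ± 0.127 under DCZ (adjusted p of 0.000142). Gpd2, the mitochondrial glycerol phosphate dehydrogenase, rose by 0.71 under saline. Of 16 regulators of these genes, 5 were called higher and 1 lower under saline, against 12.5% and 12.4% of all genes. The nuclear receptor genes Esrrb, Esrrg and Ppara rose by 1.44, 0.98 and 0.83, and Nrf1 fell by 0.30. Ppargc1a, a coactivator of mitochondrial genes, was at 0.21 under saline (adjusted p of 0.415) and -0.45 under DCZ (0.101).

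Some members share sequence with other genes, so that the split of reads between them is uncertain. Ndufb4c is annotated as a processed pseudogene and all of its 31-base words also occur in Ndufb4, yet the table gives it 60358 reads and Ndufb4 23368. Summed, the pair had 243 ± 17.4 CPM (SD, n = 6) in WT saline and 188 ± 7.02 in Th-Cre saline. Atp5g2, with 7837 reads, shares 37.5% of its words with Gm10175, which has 41035. Their sum was 135 ± 11.9 CPM in WT saline and 112 ± 7.66 in Th-Cre saline.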

How the data were processed

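Polyadenylated RNA of 24 mice was sequenced, and kallisto 0.44.0 and the build GRCm38.p6 are named in the submitters' processing notes. Which transcripts were indexed, and whether strand was used, is not given in the sources used here. The authors deposited estimated counts per gene symbol as whole numbers, with counts of all and of pseudoaligned reads and the percent pseudoaligned (84.2 to 88.7) per library. Normalized tables were not used. Symbols were matched to GENCODE M21 (35933 of 36144).

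Genes were filtered with filterByExpr by group, which left 13129 with 99.9% of reads. Library sizes used TMM. Each gene was fitted with edgeR 4.0.16 (R 4.3.3, quasi-likelihood, all 24 libraries, group means plus sex as a covariate), with Benjamini-Hochberg adjustment and a threshold of 0.05. SE is the log2 fold change over the root of F. Log2 CPM used a prior count of 2. The common biological coefficient of variation was 15.6%. The replicates are separate mice per the labels, whose numbers pair no animals. The model was tested on simulated data.

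DESeq2 1.42.0, limma-voom (limma 3.58.1), other scalings and filters, single sexes, left-out libraries and a length adjustment (lowess, span 0.3, chosen after seeing the data) were alternatives. Libraries with a mean muscle marker log2 CPM over 1 were left out in 1 of them. The members, lists, tests and rules were chosen with earlier results of these data known. Named genes were, per comparison, the 8 largest changes and 4 smallest adjusted p among called members, the smallest p per complex, all Sdh genes, isoform sets and the highest and lowest level per kb of each complex, with up to 4 genes from each other list. Further members named beside them were chosen after their values were seen.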

Additional observations from a re-analysis of the deposited data

Results flagged for a closer look

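Within each group of 6, the log2 CPM of 39 named members and the mean of each of the 5 complexes were searched for a library far from the other 5. Such a library is one whose gap to its neighbour exceeds 0.625 of the group's range, and chance marks about 1 in 20 groups. Of 176 groups searched, 13 were marked. WT saline mouse 2 accounts for 9 of them. It was lowest of its group for Atp5g3 at 7.06 (others 7.33 to 7.45), Cox4i2 at 0.99 (1.88 to 2.22), Cox5a at 9.06 (9.34 to 9.44), Cox7a2 at 8.07 (8.45 to 8.61), Ndufa4 at 9.18 (9.59 to 9.71), Ndufa4l2 at 2.30 (2.81 to 3.02) and the mean of complex V at 7.72 (7.94 to 8.06). It was highest for Sdha at 11.27 (10.59 to 10.82) and Uqcrc2 at 10.06 (9.69 to 9.80). The remaining values were WT saline mouse 9 for Sdhb at 9.86 (9.64 to 9.70), WT DCZ mouse 5 for Atp5o at 9.33 (8.87 to 9.04), Th-Cre DCZ mouse DN2091 for Sdhb at 8.56 (9.23 to 9.54) and Th-Cre DCZ mouse DN2097 for Atp5g2 at 3.35 (4.16 to 4.50).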

How the results depend on the processing

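No paired analysis was possible because the groups share no replicate numbers in the labels, each mouse being in 1 group. Counts below are members with an adjusted p under 0.05 between genotypes. Under saline, 68 were called, with 3270 genes called in all. Other scaling factors, filters, covariates and tools gave 60 to 71, with 2758 to 3497 genes called in all. The 60 came from the fit with no filter on low counts, in which 90 members and 22780 genes were tested. Leaving out 1 library at a time gave 62 to 69, with 2349 to 4270 genes called in all. Males alone gave 30 (658 of all 13154 genes), females alone 0 (6 of 13237 genes, with 52 of 84 members at an unadjusted p under 0.05 in edgeR), the length adjustment 21 (2615 of 13129) and the libraries without muscle transcripts 6 (109 of 13414). The median of -0.36 moved to -0.11 with the length adjustment and to between -0.41 and -0.34 on leaving out single libraries. Fewer samples were tested in the single-sex fits and in that without muscle transcripts, with 3 to 6 libraries a group.

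Under DCZ, 50 were called, with 1808 genes in all. The count was 31 with no filter on low counts (1452 of 22780 genes), 16 when only the compared groups were fitted (1081 of 12647) and 6 in males (735 of 13154). It was 0 in females (30 of 13237 genes, with 21 of 84 members at an unadjusted p under 0.05 in edgeR), 10 with the length adjustment (1345 of 13129) and 5 without the libraries with muscle transcripts (535 of 13414). In males and without muscle transcripts the members' share, all of it lower, was close to that of all genes called in either direction. Leaving out 1 library gave 12 (WT DCZ mouse 5) to 62 (WT DCZ mouse 1), with 850 and 2443 genes called in all. The median of -0.26 went to -0.09 with the length adjustment. The cause of these differences was not tested. For sex, 2 members were called, 1 with no covariate for group, 0 without the libraries with muscle transcripts, and 1 to 3 on leaving out single libraries. In the DCZ comparisons and the interaction, no alternative called a member.

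The sign turned with the length adjustment, which takes out by construction what short transcripts share, for Cox6b1 under saline to 0.02, for Cox8a under saline to 0.01 and for Cox6a1 under DCZ to 0.00. With the longest transcript as the length, the Cox7a1 share was 59.4% in WT saline, 60.8% in WT DCZ and 55.1% in Th-Cre DCZ. The Ndufa4 share of its pair was then 98.9% in both WT groups, 99.1% in Th-Cre mice given saline and 99% in those given DCZ, and the Atp5g1 share 0.446% and 0.459% in WT saline and WT DCZ and 0.494% in Th-Cre saline. Depth limits the rare isoforms most: Atp5g1 had 1735 reads over 24 libraries.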
